A study of Rattus norvegicus with 7 samples.

Results

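Transcript levels of 10 genes of brain blood vessels were examined in hippocampus and hypothalamus of rats whose diet held the omega-3 fatty acid DHA (docosahexaenoic acid). The genes were Cldn5, Ocln, Slc2a1, Abcb1a, Pecam1, Flt1, Kdr, Tek, Vwf and Plvap, a list of endothelial and barrier genes taken by symbol from both deposited tables. Both tables held 9 of the 10, each with 1 locus per table, among 15805 symbols that the tables share. Abcb1a, which encodes a drug efflux pump of the barrier, matched no row by its symbol or by its 2 older names and is not analysed here.

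The animals were male Sprague Dawley rats, 2 months old at the start, on a DHA diet for 6 weeks. The 7 libraries analysed comprised 4 of DHA hippocampus and 3 of DHA hypothalamus, both whole dissected tissue. Chow-fed controls are not analysed here, and the effect of the diet was not estimated. The study asked how dietary DHA affects the transcriptome and methylome of these regions, and the comparisons possible for these genes are those among replicates and between tissues. No label says which rat a library came from, so the spread between replicates may be partly technical.

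Endothelial cells of most brain capillaries are sealed by tight junctions, carry glucose and other nutrients through dedicated transporters and pump many drugs back into blood. This blood-brain barrier is kept up by signals from surrounding cells, and vascular endothelial growth factor (VEGF) and angiopoietins govern vessel growth and stability. A few sites lack the barrier and have fenestrated capillaries instead, among them the choroid plexus and the median eminence at the base of the hypothalamus.

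Values are FPKM, a fragment count corrected for transcript length and library size, as deposited by the authors in 1 table per tissue. Summed FPKM ran from 370020 to 391349 per hippocampus library and from 443335 to 471484 per hypothalamus library, and the sequencing depth behind them is unknown. Replicate 1 stood apart in both tissues: across loci of at least 1 FPKM, Pearson r of log2(FPKM + 1) was 0.827 to 0.890 in hippocampus pairs with replicate 1 and 0.944 to 0.966 in the others. In hypothalamus it was 0.897 and 0.905 against 0.971. Loci are the points of these correlations and do not count as replicates. The tissue labels were checked with 4 genes each: Neurod6, Slc17a7, Wfs1 and Itpka were higher in every hippocampus library, and Avp, Oxt, Hcrt and Pmch in every hypothalamus library.

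Promoters are shown for the 4 genes whose libraries did not overlap between the tissues (values below), from RefSeq, build GRCr8. Each runs 5′ to 3′ from 250 bases before to 50 bases after the annotated start. Capitals mark 2 core promoter motifs, the TATA box (TATAAA) and the CCAAT box (CCAAT), searched on both strands, and no base belonged to both.
Cldn5 promoter, chr11:95718549-95718848, minus strand: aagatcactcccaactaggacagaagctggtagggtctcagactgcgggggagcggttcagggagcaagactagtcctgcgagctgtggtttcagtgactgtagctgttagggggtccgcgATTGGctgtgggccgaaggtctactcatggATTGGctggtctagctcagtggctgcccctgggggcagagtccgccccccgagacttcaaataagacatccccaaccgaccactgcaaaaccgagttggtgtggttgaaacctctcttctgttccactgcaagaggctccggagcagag
Slc2a1 promoter, chr5:138002272-138002571, plus strand: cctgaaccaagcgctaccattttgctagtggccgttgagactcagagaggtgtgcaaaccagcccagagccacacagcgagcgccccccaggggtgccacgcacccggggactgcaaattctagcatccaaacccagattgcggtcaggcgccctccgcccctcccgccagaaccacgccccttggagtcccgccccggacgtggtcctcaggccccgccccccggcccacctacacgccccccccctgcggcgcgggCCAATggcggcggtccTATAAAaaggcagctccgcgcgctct
Flt1 promoter, chr12:12333180-12333479, plus strand: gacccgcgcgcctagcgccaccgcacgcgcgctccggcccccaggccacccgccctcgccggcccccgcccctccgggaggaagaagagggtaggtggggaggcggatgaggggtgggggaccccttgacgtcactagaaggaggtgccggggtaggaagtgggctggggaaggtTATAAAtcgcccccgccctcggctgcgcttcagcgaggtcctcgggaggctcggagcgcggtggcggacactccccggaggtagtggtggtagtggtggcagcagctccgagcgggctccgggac
Plvap promoter, chr16:18231230-18231529, minus strand: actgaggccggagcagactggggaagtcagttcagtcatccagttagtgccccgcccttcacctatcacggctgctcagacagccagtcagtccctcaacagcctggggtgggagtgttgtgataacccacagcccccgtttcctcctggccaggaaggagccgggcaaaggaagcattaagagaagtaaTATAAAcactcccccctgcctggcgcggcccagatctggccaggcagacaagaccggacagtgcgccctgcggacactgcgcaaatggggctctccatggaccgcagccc

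Flt1 and Plvap each held 1 TATA box upstream of the start, with its first base 75 and 60 bases before it. In Slc2a1 the TATA box began at base 25 after the annotated start and a CCAAT box at base 9. Cldn5 had no TATA box and held 2 CCAAT boxes on the opposite strand, beginning 129 and 99 bases before the start. Of 33469 RefSeq promoters of the same length, 14.2% held a TATA box and 37.5% a CCAAT box by this search. Of the 9 genes found in the tables, 6 had a promoter in the RefSeq set, and 3 of these held a TATA box. GGAA, the core recognised by ETS factors that act in endothelium, occurred in 5 of the 6, against 95.8% of all promoters. These matches are of letters alone and describe the sequence, not a bound site. GC content was 57.7% for Cldn5, 61.0% for Plvap, 68.3% for Slc2a1 and 72.7% for Flt1, where the median of all promoters was 51.7%.

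The order of levels was first compared within each tissue. Slc2a1, the glucose transporter GLUT1 that is also made by astrocytes, was the highest of the 9 in both tissues. Cldn5 was next, and every library of each of these genes lay above every library of the gene after it. In hippocampus the third was Flt1, again separate from the genes below. Pecam1, Tek, Vwf and Ocln followed with means from 8.07 down to 6.02 FPKM, and neighbours among these 4 overlapped. Kdr and Plvap came last and overlapped with each other. In hypothalamus Plvap took the third place, overlapping Pecam1, which in turn overlapped Vwf. Flt1 came after these and overlapped Tek, Tek overlapped Ocln, and Kdr was the lowest.

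**Figure D1:**
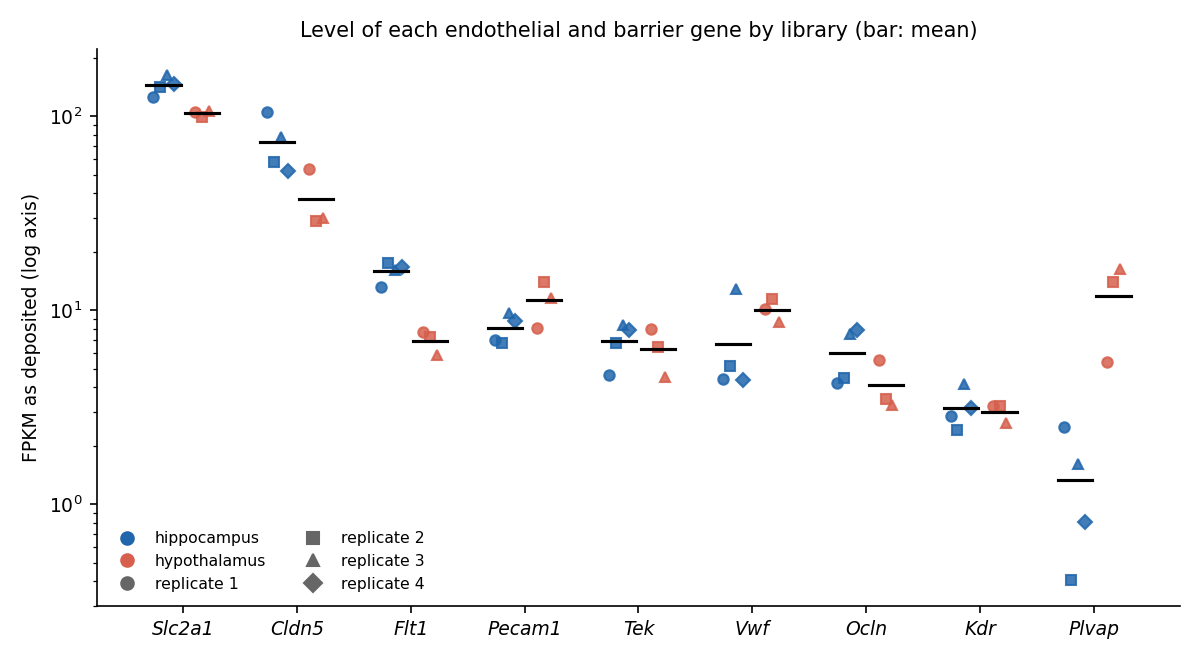
FPKM as deposited (log axis) of the 9 genes in each library, hippocampus in blue and hypothalamus in red, with a marker shape per replicate and a black bar at the mean. Slc2a1 and Cldn5 lead in both tissues, while Plvap is the lowest gene in hippocampus (mean 1.33 FPKM) and the third in hypothalamus (mean 11.9 FPKM).

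To compare the tissues, the FPKM of the shared symbols were scaled to total 1000000 in every library, and differences are hippocampus minus hypothalamus of mean log2(rescaled FPKM + 1), which understates changes of low genes. Because each tissue has its own table, tissue and table cannot be told apart and no test was made across them. A gene is called higher in a tissue when all of its libraries there lay above all libraries of the other tissue. Of the 9 genes, 4 were so separated, or 44.4%, while 52.6% were among the 10736 symbols whose mean reached 1 FPKM in either tissue, as it did for all 9 genes. The share was near that of all symbols and is no result about these genes. Cldn5, Slc2a1 and Flt1 were higher in hippocampus (3 of 9, where all symbols gave 28.2%) and Plvap was higher in hypothalamus (1 of 9, where all symbols gave 24.4%). With a difference of at least 2-fold also required, Cldn5 and Flt1 stayed on the hippocampal side, where all symbols gave 14.5%, and Plvap on the hypothalamic side, where all symbols gave 13.4%. The median difference was 0.40 over the 9 genes and 0.05 over all symbols. In these bulk samples, fewer endothelial cells and less RNA per cell cannot be told apart.

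The scaling bears on these counts. In FPKM as deposited the median difference was 0.11 over the 9 genes and −0.21 over all symbols. The share of separated symbols that were higher in hippocampus went from 53.6% to 35.1%. Slc2a1 and Flt1 then remained higher in hippocampus and Plvap in hypothalamus, while Cldn5 overlapped.

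**Figure D2:**
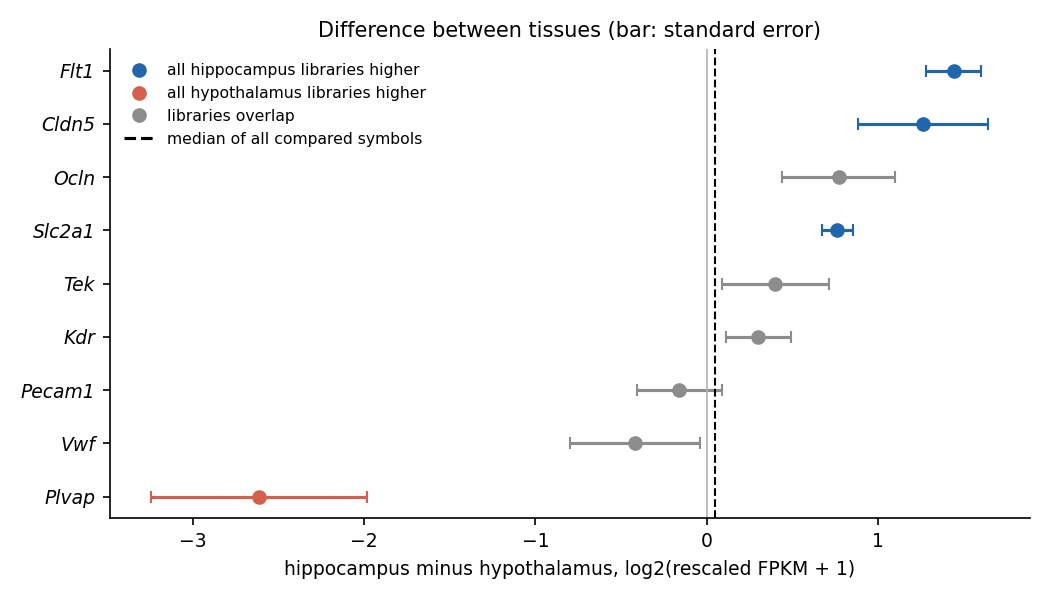
Difference between tissues of each gene, as hippocampus minus hypothalamus on the log2(rescaled FPKM + 1) scale, with its standard error as a bar and the median of all compared symbols as a dashed line. Flt1 (1.44) and Cldn5 (1.26) lie farthest to the right and Plvap (−2.61) farthest to the left.

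Cldn5 encodes claudin-5, the main claudin of brain endothelial tight junctions. It read 105, 57.9, 77.9 and 52.3 FPKM in hippocampus replicates 1 to 4 and 53.2, 28.8 and 30.0 FPKM in hypothalamus replicates 1 to 3. Replicate 1 was the highest library in both tissues. The highest hypothalamic value thus slightly exceeded the lowest hippocampal one as deposited, and after rescaling all 4 hippocampus libraries (150 to 304) lay above the 3 of hypothalamus (67.7 to 127). The rescaled means were 211 ± 70.6 (SD, n = 4) and 87.7 ± 33.8 (SD, n = 3), a difference of 1.26 ± 0.38 (SE). Without replicate 1 of both tissues it was 1.36, and as deposited it was 0.95.

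Ocln encodes occludin, a 4-pass membrane protein of the same junctions. Its hippocampus libraries read 4.22, 4.46, 7.52 and 7.87 FPKM and its hypothalamus libraries 5.55, 3.48 and 3.26 FPKM. The tissues overlapped through hypothalamus replicate 1 and hippocampus replicates 1 and 2. The difference was 0.77 ± 0.33 (SE), and without hypothalamus replicate 1 all hippocampus libraries lay above the remaining 2. Of all symbols, 66.1% were separated in that setting. The promoter of Ocln is not printed, as its tissues were not separated.

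Slc2a1 varied little among replicates, with an SD of log2(FPKM + 1) of 0.16 in hippocampus and 0.06 in hypothalamus. It read 125, 141, 164 and 146 FPKM in hippocampus and 105, 98.8 and 107 FPKM in hypothalamus, so that the groups did not overlap even as deposited. The rescaled means were 414 ± 48.8 (SD, n = 4) and 242 ± 7.03 (SD, n = 3), and the difference was 0.76 ± 0.09 (SE), or 1.71-fold. As deposited it was 0.46.

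Flt1 and Kdr encode VEGF receptors 1 and 2. KDR carries most of the growth signal of VEGF, and FLT1 binds VEGF tightly with weak kinase activity. Flt1 read 13.2, 17.6, 16.2 and 16.8 FPKM in hippocampus and 7.73, 7.25 and 5.89 FPKM in hypothalamus. The groups did not overlap, before or after rescaling. The difference was 1.44 ± 0.16 (SE), 2.81-fold between rescaled means, and 16.9% of all compared symbols had a larger difference in either direction. Across the 17 alternatives tried it stayed between 1.09 and 1.61, with separate groups in each.

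Kdr was the lowest gene in hypothalamus, and it read 2.85, 2.40, 4.16 and 3.13 FPKM in hippocampus and 3.19, 3.19 and 2.63 FPKM in hypothalamus. The libraries overlapped and the difference was 0.30 ± 0.19 (SE). Left without hippocampus replicate 2, its lowest library there, Kdr no longer overlapped after rescaling. Dropping the library that overlaps favours separation, and 53.9% of all symbols were separated in that setting. Dividing 2 genes of the same library removes that library's scaling, though gene models may still differ between the tables. The ratio of Flt1 to Kdr was 4.63, 7.34, 3.88 and 5.38 in hippocampus and 2.42, 2.27 and 2.24 in hypothalamus. Every hippocampus library had the higher ratio, by 2.23-fold between the means on the log2 scale.

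**Figure D3:**
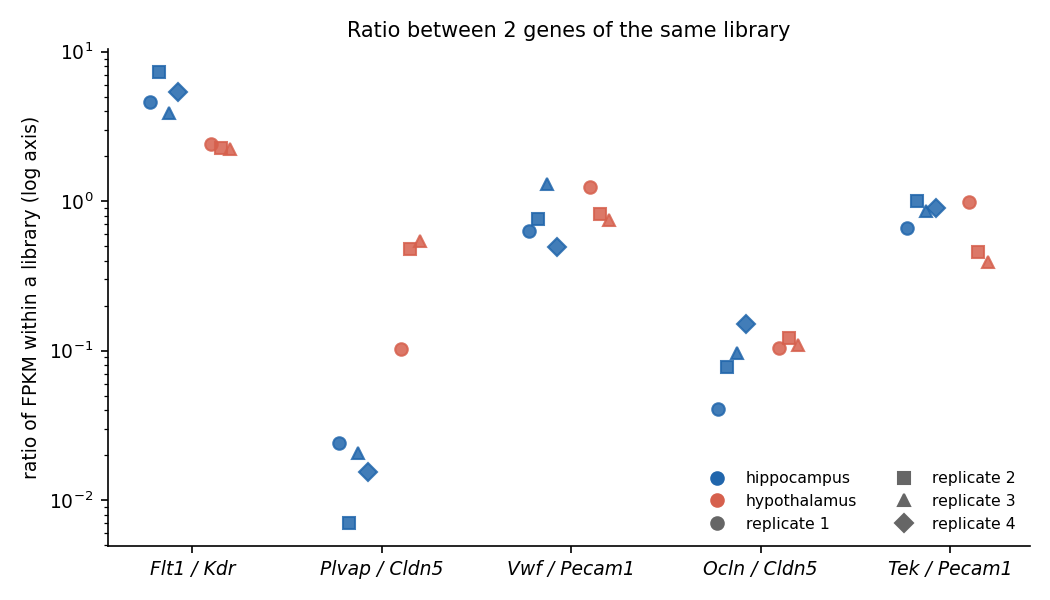
Ratio of FPKM between 2 genes of the same library (log axis), for 5 pairs, hippocampus in blue and hypothalamus in red. The tissues are separate for Flt1 to Kdr and for Plvap to Cldn5 and overlap for the other 3 pairs.

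Tek encodes TIE2, the receptor of the angiopoietins. It read 4.63, 6.81, 8.36 and 7.89 FPKM in hippocampus and 8.03, 6.45 and 4.53 FPKM in hypothalamus, with fully intermixed libraries. Replicate 1 was the lowest hippocampal and the highest hypothalamic library. The difference was 0.40 ± 0.31 (SE) with all 7 libraries and 0.76 without replicate 1 of both tissues, when the remaining libraries no longer overlapped. Of all symbols, 73.9% were separated in that setting. The ratio of Tek to Pecam1 overlapped, at 0.663 to 1.0 in hippocampus and 0.390 to 0.986 in hypothalamus.

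Pecam1 encodes CD31, an adhesion molecule of endothelial cell contacts that is also made by platelets and leukocytes. It read 6.99, 6.80, 9.73 and 8.77 FPKM in hippocampus and 8.14, 14.0 and 11.6 FPKM in hypothalamus. The groups overlapped only through hypothalamus replicate 1 as deposited, and the rescaled difference was −0.16 ± 0.25 (SE). Its sign was not stable, at 0.03 without hypothalamus replicate 2 and −0.42 as deposited.

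Vwf encodes von Willebrand factor, a clotting protein stored in endothelial cells, mostly of larger vessels. It read 4.42, 5.17, 12.8 and 4.36 FPKM in hippocampus, where replicate 3 was far above the rest, and 10.1, 11.4 and 8.67 FPKM in hypothalamus. Because of hippocampus replicate 3 the groups overlapped, and the difference was −0.42 ± 0.38 (SE). Without that library it was −0.78, and all hypothalamus libraries were higher. As the overlapping library was the one dropped, separation was favoured, and 56.0% of all symbols were separated in that setting. Markers of other cells were examined beside Vwf. Summed FPKM of the mural cell list (10 of 11 genes found) was 1089 in hippocampus replicate 3 and 94.3 to 170 in the other 3. Acta2, the actin of smooth muscle, read 818 FPKM there and 5.55 to 90.4 FPKM in the others, although it has 2 loci in the hippocampus table. That library's sum was carried by Acta2 and by Tagln, another smooth muscle gene, at 161 FPKM, and 6 of the 10 genes were highest there, Pdgfrb, Anpep, Notch3 and Vtn among them. Rgs5, Cspg4, Kcnj8 and Abcc9 were highest in other libraries. The meninges list (8 of 8 genes found, Col1a2 listed at 0 in all 7 libraries) summed to 281 FPKM in that library and to 33.2 to 99.4 FPKM in the others. Hypothalamus varied in the same lists. There the mural list summed to 543, 731 and 174 FPKM and the meninges list to 207, 441 and 82.4 FPKM, both lowest in replicate 3, as was Vwf. Their part in the level of Vwf was not tested. The ratio of Vwf to Pecam1 overlapped between the tissues, at 0.497 to 1.31 in hippocampus and 0.747 to 1.25 in hypothalamus.

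Plvap encodes a protein of the diaphragms that span fenestrae, and it is known as a marker of capillaries without a barrier. It read 2.51, 0.405, 1.61 and 0.813 FPKM in hippocampus and 5.44, 13.9 and 16.3 FPKM in hypothalamus. The lowest hypothalamus library was above the highest hippocampus library, with replicate 1 the closest to the other tissue in both. Rescaled means were 3.87 ± 2.72 (SD, n = 4) and 27.6 ± 12.8 (SD, n = 3), 7.14-fold apart. The difference was −2.61 ± 0.63 (SE), and 4.35% of all compared symbols had a larger one in either direction. It ran from −3.38 to −1.84 over the 17 alternatives, with separate groups in each. The spread was wide within both tissues: its SD of log2(FPKM + 1) was 0.58 in hippocampus, larger than at 90.0% of loci, and 0.77 in hypothalamus, larger than at 94.5% of loci.

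Relative to Cldn5, Plvap stood at 0.0240, 0.00701, 0.0206 and 0.0155 in hippocampus and at 0.102, 0.482 and 0.543 in hypothalamus. This ratio of a fenestral to a tight junction gene was higher in every hypothalamus library, with a difference of −4.29 between means of the log2 ratio, or 19.6-fold. The size is uncertain, as it rests on Plvap values down to 0.405 FPKM: the log2 difference was −5.07 without hypothalamus replicate 1, −5.29 without replicate 1 of both tissues and −3.38 with a pseudocount of 1. Ocln against Cldn5 did not separate the tissues, with ratios of 0.0404 to 0.150 and 0.104 to 0.121.

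Cells around fenestrated vessels were checked beside Plvap. Of the pituitary list, 7 of 7 genes were found and 4 reached 1 FPKM in a tissue: Cga, Lhb, Tshb and Pou1f1. They did so through hypothalamus alone, so their separation towards that tissue (24.4% of all symbols) follows in part from the filter and their levels are a description. Their list summed to 0.524 to 1.37 FPKM in hippocampus and to 102, 325 and 225 FPKM in hypothalamus replicates 1 to 3, with replicate 1 lowest, as for Plvap, and replicate 2 highest, where Plvap peaked in replicate 3. Cga, the shared subunit of pituitary glycoprotein hormones, read 70.4, 282 and 183 FPKM in hypothalamus, while Prl was listed at 0 in all 7 libraries and Gh1 did not exceed 0.237 FPKM. The choroid plexus list (8 of 9 genes found, Otx2 listed at 0 throughout) summed to 5101, 128, 6754 and 2639 FPKM in hippocampus and to 121 to 182 FPKM in hypothalamus. Its lowest hippocampus library, replicate 2, was also the lowest for Plvap, but the library with the most, replicate 3, was second for Plvap. The part of these cells in the level of Plvap was not tested.

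**Figure D4:**
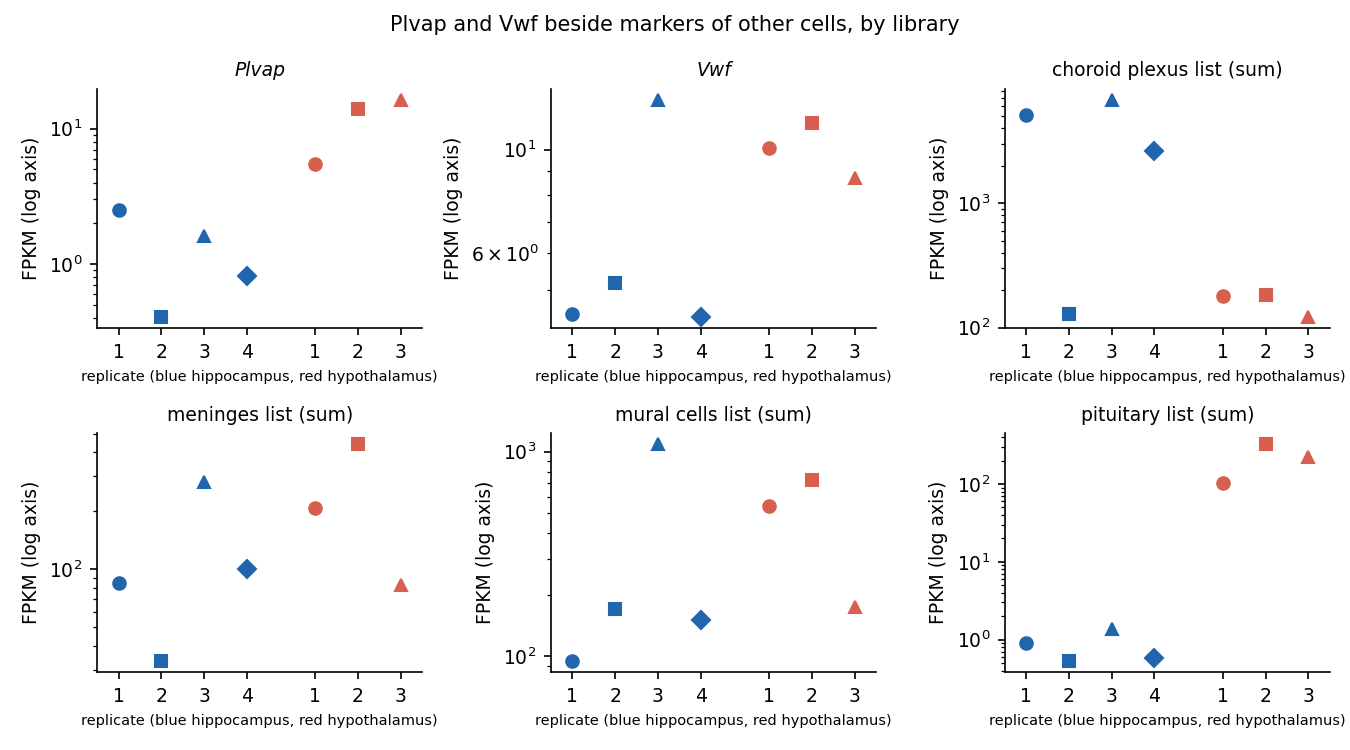
FPKM as deposited (log axes, with a range of its own in each panel) of Plvap and Vwf and summed FPKM of 4 marker lists in the 4 hippocampus (blue) and 3 hypothalamus (red) libraries. Hippocampus replicate 3 is highest of its tissue for Vwf (12.8), the mural list (1089) and the meninges list (281), and the pituitary list is above 100 FPKM only in hypothalamus.

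The genes whose profile over the 7 libraries was most like that of a member were sought among 8469 symbols whose mean reached 5 FPKM in either tissue. Likeness was the root mean square difference of log2 profiles, each centred on its own mean. For Plvap the nearest were Ptpn18 (0.35), Cbln1 (0.39) and Heyl (0.41). Heyl read 1.62 to 3.20 FPKM over the hippocampus libraries and 13.8, 23.8 and 29.3 FPKM in hypothalamus. For Flt1 they were Kctd16 (0.05), Gpc4 (0.06) and Soat1 (0.07), and for Cldn5 they were Rpl27a (0.10), Thrsp (0.14) and Aarsd1 (0.17). Aarsd1 shared the high replicate 1 of Cldn5 in hippocampus, at 45.0 FPKM against 21.8 to 30.6 FPKM. Rpl27a belongs to a family with many near-identical pseudogenes, so its values are uncertain. With 7 libraries, close profiles are a description of these libraries only.

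Within tissues, the 9 genes did not share 1 library as the highest. In hippocampus replicate 3 was the highest for 5 of the 9, and replicate 1 the lowest for 4. In hypothalamus replicate 1 was the highest for 5 and replicate 3 the lowest for 5. The median SD of log2(FPKM + 1) over the 9 genes was 0.33 in hippocampus and 0.34 in hypothalamus, where all loci of at least 1 FPKM gave 0.24 and 0.25.

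Other genes of barrier and vessel were taken from 5 lists of 61 genes, of which 50 were found and 47 reached 1 FPKM in a tissue. Hippocampus was higher for 13 of the 47 and hypothalamus for 5, 38.3% in all against the 52.6% of all symbols. Their median difference was 0.19. In FPKM as deposited, 13 of the 47 were higher in hypothalamus in place of 5, as were 35.2% of all symbols in place of 24.4%.

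Of 11 junction genes, 4 were higher in hippocampus and none in hypothalamus, 7 overlapping, beside 28.2% and 24.4% of all symbols. Esam, an adhesion molecule of endothelial tight junctions, read 36.1, 45.9, 46.7 and 40.7 FPKM in hippocampus and 17.2, 17.9 and 13.7 FPKM in hypothalamus, a difference of 1.65. Marveld2, which encodes tricellulin of 3-cell contacts, read 2.51 to 3.75 FPKM and 0.932 to 1.63 FPKM, a difference of 1.28. Ctnnb1, β-catenin, was the highest gene of the list at 120 to 137 FPKM in hippocampus and 103 to 127 FPKM in hypothalamus, a difference of 0.52 that overlapped as deposited. Esam was more than 2-fold higher under every alternative tried, from 1.33 to 1.78. Marveld2 stayed higher in hippocampus but under 2-fold as deposited (0.82), with upper-quartile (0.92) and median-of-ratios scaling (0.97) and with a pseudocount of 5 (0.77).

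Of 10 transport genes, 7 overlapped, 2 were higher in hippocampus and 1 in hypothalamus, beside the same 28.2% and 24.4%. Slc38a5, a glutamine transporter, was higher in hypothalamus, at 5.01, 3.76 and 3.13 FPKM against 0.759 to 1.59 FPKM in hippocampus, a difference of −1.39. The size depends on the pseudocount, at −1.65 with 0.1 and −0.84 with 5, as its hippocampal mean was only 1.03 FPKM. Mfsd2a, the carrier of DHA-containing lysolipids at the barrier, and Insr, the insulin receptor, were higher in hippocampus by 0.78 and 0.58. For Mfsd2a this rested on 1 of its 2 loci per table, and with both loci summed the difference was −0.17. Insr has 2 loci in the hippocampus table and 1 in that of hypothalamus, and its difference was 0.28 as deposited and 0.95 with loci summed. Slc3a2, the heavy chain of amino acid carriers, was the highest of the list, at 97.2 to 132 FPKM in hippocampus and 133 to 146 FPKM in hypothalamus. It was thus higher in hypothalamus as deposited (−0.26), and after rescaling it overlapped, with a difference of 0.03.

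Of 9 VEGF and angiopoietin genes, 6 overlapped, 2 were higher in hippocampus and 1 in hypothalamus, shares again no larger than those of all symbols (28.2% and 24.4%). Among ligands, Pgf, placental growth factor and a ligand of FLT1, read 0.722, 0.432, 1.40 and 0.513 FPKM in hippocampus and 5.41, 7.86 and 7.68 FPKM in hypothalamus. It reached 1 FPKM through hypothalamus alone, and its difference of −2.49 was opposite in sign to that of its receptor gene Flt1. The size depends on the pseudocount, at −2.96 with 0.1 and −1.57 with 5. Vegfa, the most abundant of the ligands found, overlapped at 14.1 to 22.5 FPKM and 20.6 to 31.9 FPKM. Without replicate 1 of both tissues it was higher in hypothalamus (−0.53), as were 33.2% of all symbols. The listed ligand gene Vegfb was not found. The neuropilin co-receptors Nrp1 and Nrp2 were higher in hippocampus by 1.59 and 0.88, but neurons express both. Nrp1 read 13.0 to 18.9 FPKM in hippocampus and 4.99 to 7.13 FPKM in hypothalamus.

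Of 9 genes of the Wnt pathway that induces the barrier, 3 were higher in hippocampus and 1 in hypothalamus, beside 28.2% and 24.4% of all symbols. The ligand Wnt7b read 13.7 to 16.9 FPKM in hippocampus and 9.76 to 15.3 FPKM in hypothalamus, a difference of 0.57 that overlapped as deposited. Wnt7b has 2 loci in the hippocampus table and 1 in that of hypothalamus, and with loci summed its difference was 0.64. Sox17, an endothelial transcription factor, was higher in hippocampus by 0.69. Lef1, which carries the Wnt signal to DNA, was higher in hypothalamus, at 6.64, 7.86 and 5.31 FPKM against 1.82 to 2.69 FPKM. Tspan12, a co-receptor component, was the highest of the list and overlapped, at 18.5 to 30.8 FPKM and 25.3 to 46.8 FPKM.

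Of 8 genes of endothelial identity, 2 were higher in each tissue and 4 overlapped, shares near those of all symbols (28.2% and 24.4%). Emcn, an endothelial sialomucin, and Robo4, a guidance receptor of endothelium, were higher in hippocampus by 0.80 and 0.84. Robo4 reached 1 FPKM through hippocampus alone, at 1.05 to 1.42 FPKM there and 0.513 to 0.946 FPKM in hypothalamus, so its separation follows in part from the filter. It has 2 loci in each table, and its difference ran from 0.39 to 1.15 over the alternatives, at 0.43 as deposited. Sox18, a transcription factor of endothelium, and Icam2, an adhesion molecule, were higher in hypothalamus, Sox18 with a difference of −0.93. Icam2 read 1.06 to 2.85 FPKM in hippocampus and 4.19 to 5.95 FPKM in hypothalamus and was separate under every alternative tried. Its difference stood at the 2-fold line and lost that call under several other settings, for example at −0.87 with median-of-ratios scaling and −0.79 without hippocampus replicate 4. Icam2 has 1 locus in the hippocampus table and 2 in that of hypothalamus, and with loci summed its difference was −1.38. Sox18 read 2.46 to 6.28 FPKM in hippocampus and 9.35 to 10.8 FPKM in hypothalamus. Cav1, the caveolae protein, was the highest of the list and overlapped, at 10.9 to 23.9 FPKM and 20.3 to 28.8 FPKM.

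**Figure D5:**
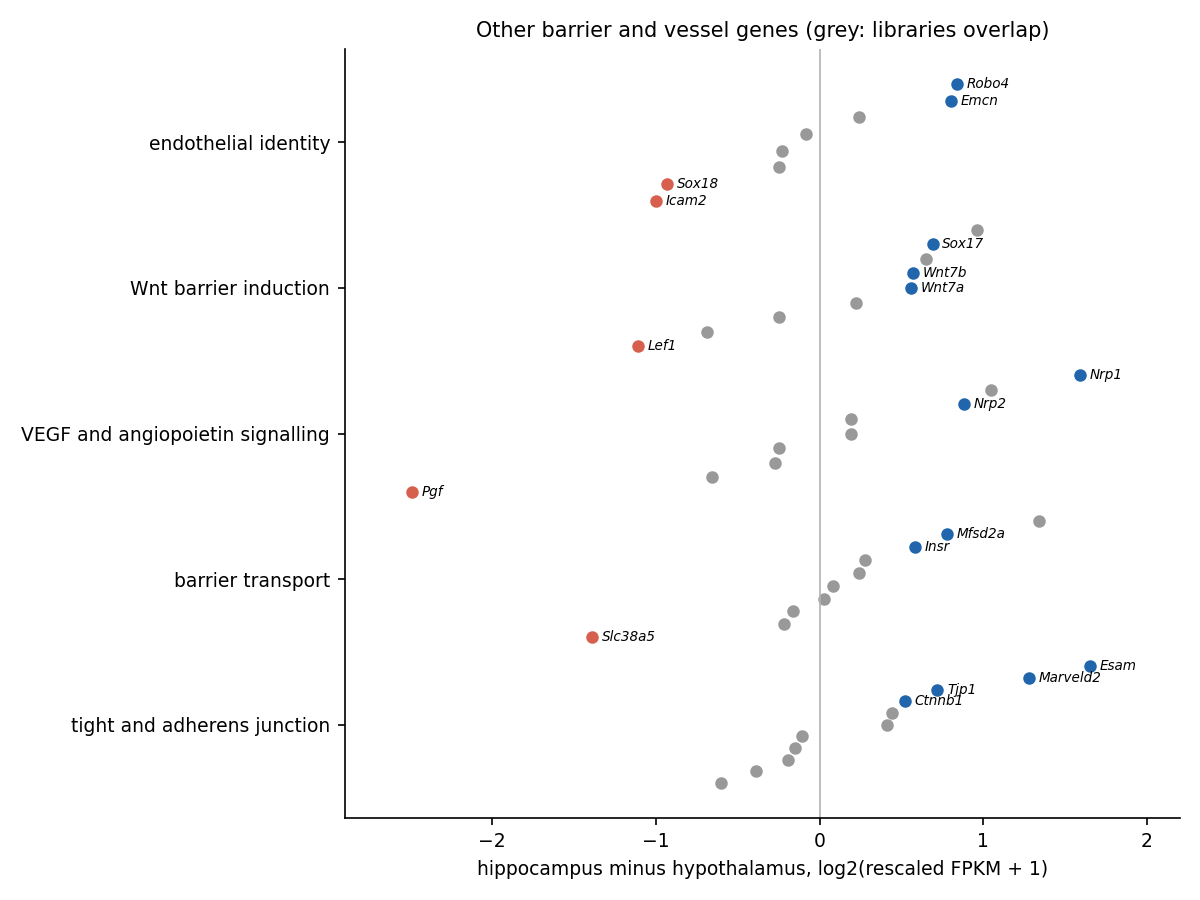
Difference between tissues of the 47 other barrier and vessel genes, as hippocampus minus hypothalamus on the log2(rescaled FPKM + 1) scale, by list. Blue and red points are genes higher in every hippocampus or hypothalamus library and grey points overlap, with Pgf (−2.49) farthest towards hypothalamus and Esam (1.65) farthest towards hippocampus.

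Mural cells, the pericytes and smooth muscle cells that wrap vessels, gave 5 of 10 genes higher in hypothalamus, where all symbols gave 24.4%, and none in hippocampus, where all symbols gave 28.2%, with a median difference of −0.58. The pericyte gene Rgs5 read 29.5 to 40.2 FPKM in hippocampus and 52.5 to 69.8 FPKM in hypothalamus, while Pdgfrb overlapped at 5.29 to 9.66 FPKM and 4.95 to 10.2 FPKM. Astrocytes, whose endfeet cover the capillaries, gave 1 of 7 genes higher in hippocampus and 2 of 7 in hypothalamus, beside the same shares of all symbols. Slc1a2, a glutamate transporter, read 504 to 863 FPKM in hippocampus and 191 to 257 FPKM in hypothalamus, the largest difference of the list (1.89). Aqp4, the water channel of the endfeet, lay on the other side and read 72.2 to 106 FPKM and 197 to 272 FPKM. Both genes have 2 loci in each table. Aldh1l1, an astrocyte enzyme with 1 locus per table, read 12.4 to 16.5 FPKM and 36.3 to 59.0 FPKM, a difference of −1.30. Blood was read from 2 of its 6 listed genes: Ahsp, which reached 1 FPKM through hypothalamus alone, read 2.45 to 6.30 FPKM there and at most 0.396 FPKM in hippocampus, and Alas2 overlapped.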

How the data were processed

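Poly-A RNA of 4 hippocampus and 3 hypothalamus samples was sequenced on an Illumina HiSeq 2000, per the labels' protocols. The authors deposited FPKM per locus, 1 table per tissue. Tools named without version or role in the submitters' processing notes are TopHat, TopHat2, Bowtie, Bowtie2, Cufflinks and Cuffdiff, with build rn5. Whether fragments were counted by strand is not given in the sources used here.

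Loci not marked OK in every library were dropped (86 in hippocampus, 24 in hypothalamus). The highest-mean locus stood for a symbol, and symbols joined the tables. Shared symbols were scaled to total 1000000 per library. Those whose mean reached 1 FPKM in either tissue were compared as log2(value + 1), without a test. The standard error combines both tissues' SDs. The alternatives were other scalings, pseudocounts of 0.1 and 5, other filters, summed loci and left-out libraries. Members and lists were chosen with earlier results of these data known. Named genes of other lists were the 2 with the largest difference in each direction among separated genes and the highest gene, and further genes of marker lists were named after their values were seen. The single-gene screen of 1 list gene is not reported here. Python 3.11.15, pandas 2.3.3 and matplotlib 3.10.9 were used.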

Additional observations from a re-analysis of the deposited data

Results flagged for a closer look

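In hippocampus, 123 results were screened for 1 library far from the other 3, by Dixon's test at 95%, which sets the gap to the nearest library against the range of all 4. They were the 9 genes, their ratios, the summed marker lists and 100 list genes whose hippocampal mean reached 1 FPKM, a set widened after the values were seen. The test picked out 13, where chance gives about 6.15, and most of them share a library, so they are not independent. Of the 11 list genes picked out, 9 were high in replicate 3, as were Vwf and the summed mural list.

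Vwf had a ratio of 0.904, at 12.8 FPKM against 4.36 to 5.17 FPKM in the other 3 libraries. Cdh5, the cadherin of endothelial contacts, had 0.935, at 8.18 FPKM against 2.98 to 3.32 FPKM. The summed mural cell list had 0.924, at 1089 FPKM against 94.3 to 170 FPKM, and within it Acta2 had 0.896, Tagln 0.929 and Anpep 0.878. Among meninges genes the ratio was 0.949 for Lum, 0.949 for Col1a1, 0.964 for Slc6a13 and 0.916 for Aldh1a2, where replicate 3 gave Col1a1 71.9 FPKM against 3.95 to 7.43 FPKM. Slc38a5, a glutamine transporter gene, had 0.832, at 1.59 FPKM against 0.759 to 0.898 FPKM. Replicate 4 stood apart for 2 genes: S100b of astrocytes (0.834) was low there, and Cldn11 of oligodendrocytes (0.881) was high.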

How the results depend on the processing

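No paired analysis was possible because no label ties a replicate number to a rat and, with each tissue in a table of its own, no test was fitted across tables. Of the values recomputed for summary results, 208 stayed within the spread among replicates or within 1.5 times the main count, and 10 did not. Without replicate 1 of both tissues, 5 members were higher in hippocampus in place of 3, where all symbols gave 40.8% in place of 28.2%. The 2 added were Ocln and Tek, and the difference in the Tek to Pecam1 ratio went from 0.59 to 1.12. With FPKM as deposited, 1 member was at least 2-fold higher in hippocampus in place of 2. Leaving out 1 library gave 3 to 4 members higher in hippocampus and 1 to 2 in hypothalamus, where Vwf was added without hippocampus replicate 3. All symbols then gave 28.7% to 36.7% higher in hippocampus and 24.9% to 29.4% in hypothalamus. The Tek to Pecam1 difference was 0.33 to 1.0 with 1 library left out. Barrier and vessel genes higher in hypothalamus numbered 5, but 13 as deposited, 9 with upper-quartile and with median-of-ratios scaling, and 5 to 11 when 1 library was left out, the most without hippocampus replicate 3. Without hypothalamus replicate 3 they numbered 9, and 8 without replicate 1 of both tissues. The share of all symbols higher in hypothalamus also changed, from 24.4% to 35.2% as deposited, 28.8% with upper-quartile and 25.7% with median-of-ratios scaling. It was 27.3% without hippocampus replicate 3, 28.3% without hypothalamus replicate 3 and 33.2% without replicate 1 of both tissues. With loci summed, Mfsd2a reversed to −0.17. Fewer libraries make separation more likely by construction: without replicate 1 of both tissues, 73.9% of all symbols were separated. Kdr has no value at a minimum of 5 FPKM. The spread among replicates was taken from FPKM as deposited, so that scaling was no alternative for it. The depth is unknown, so the counting error of low levels such as Plvap in hippocampus cannot be given.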
